A study of Mus musculus with 6 samples.

Results

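The axis described here links UBR7, a ubiquitin ligase, through KEAP1 and CUL3 to the transcription factors NRF2 and BACH1 and to the glycolytic enzyme HK2. Its members were chosen by transcript identifier and not by their values: 7 transcripts of 6 genes, out of 208848 transcripts in the deposited table. They are ENST00000013070.10_1 (UBR7), ENST00000171111.9_2 and ENST00000393623.6_2 (KEAP1), ENST00000264414.8_1 (CUL3), ENST00000397062.7_3 (NFE2L2, the gene of NRF2), ENST00000286800.7_1 (BACH1) and ENST00000290573.6_1 (HK2). All 7 were found. RNA-seq was performed on mouse liver primary cells of 2 genotypes, wild type (WT) and Alb-Cre;UBR7fl/fl, with 3 samples of each by their labels. In the second genotype, loxP sites flank part of Ubr7 in both alleles, and Cre driven by the albumin promoter deletes that part in hepatocytes, so that other liver cells should keep the gene. According to the methods of the study the mice were male, 8 weeks old and of C57BL/6 background, and the cells came straight from digested liver, whereas the growth protocol in the labels describes a conditionally immortalized culture. The labels name no treatment.

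The deposited table holds 1 FPKM value per transcript and genotype, named as a mean. Whether this value averages the 3 samples of a genotype was not tested. FPKM divides the sequenced fragments on a transcript by its length and by the number of mapped fragments, so that levels of different transcripts can be set side by side. With 1 value per genotype there is no replicate error, and no difference below was tested against variation between mice. All 208848 identifiers are human Ensembl transcripts and 0 are mouse transcripts, although the samples are labelled as mouse. Whether the reads came from mouse RNA was not tested. The labelled cell type was not checked against hepatocyte markers, because no table used here pairs the identifiers with gene symbols, and the members are named by the rule that chose them. For the same reason the other genes of the pathway, such as the remaining hexokinases, the small MAF proteins and the antioxidant enzymes, were not analysed here. In bulk RNA, fewer cells of a type and less RNA per cell cannot be told apart.

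KEAP1 is the sensor of oxidative and electrophilic stress in this pathway. It is an adaptor that brings NRF2 to a ubiquitin ligase built on CUL3, and NRF2 is then degraded, so that NRF2 activity is set largely at the protein level. When KEAP1 is modified by electrophiles, NRF2 accumulates, pairs with small MAF proteins and activates antioxidant and detoxification genes in liver. BACH1, a repressor that is released from DNA and degraded when heme binds it, competes for the same DNA elements, and HK2 is the hexokinase that is low in normal hepatocytes and high in many liver tumours. The study asked whether UBR7, through ubiquitination of histone H2B at the Keap1 promoter, keeps NRF2, BACH1 and HK2 low.

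The members differed between the columns in 2 directions. UBR7, both KEAP1 transcripts and CUL3, that is, the ubiquitin ligase subunits and the targeted gene, were listed 16.7% to 20.1% higher in the column labelled Alb-Cre;UBR7fl/fl than in the WT column. NFE2L2, BACH1 and HK2, the transcription factors and the glycolytic enzyme, were listed lower in the same column, by 19.3%, 54.3% and 15.9%. BACH1 had the largest difference of the 7. None of the 7 differed by 1 or more on the log2(FPKM + 1) scale, the limit used here for a call.

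**Figure D1:**
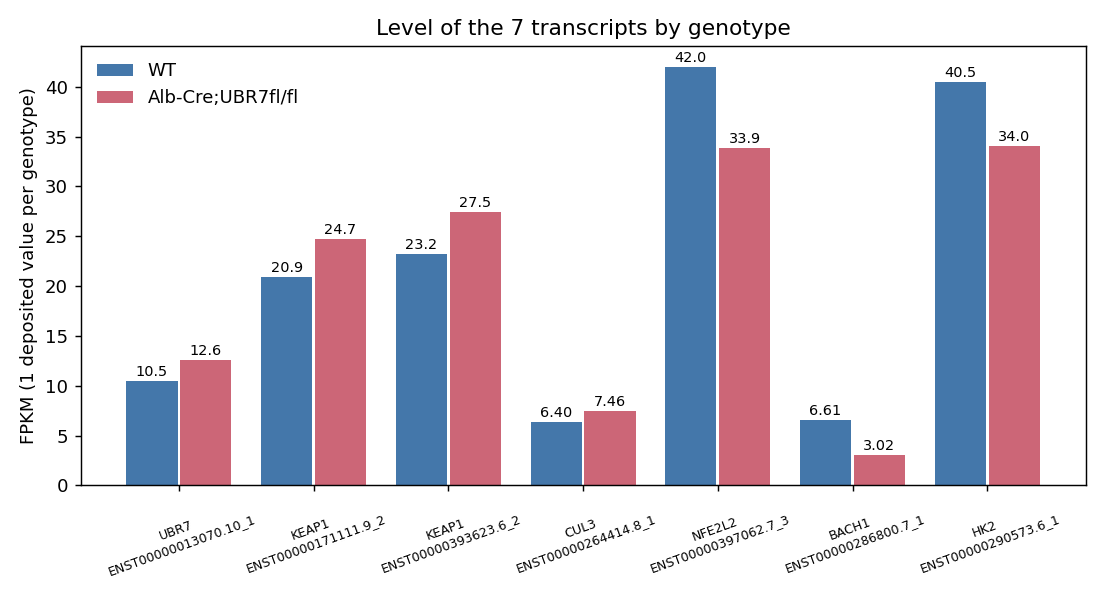
FPKM of the 7 transcripts (horizontal axis) in the WT column (blue bars) and the column labelled Alb-Cre;UBR7fl/fl (red bars); each bar is 1 deposited value and carries no error bar. UBR7, KEAP1 and CUL3 have the higher red bar, and NFE2L2, BACH1 and HK2 have the higher blue bar, with the widest relative gap at BACH1 (6.61 against 3.02 FPKM).

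The targeted gene serves as the check of the genotype labels. UBR7, a ubiquitin ligase with a PHD finger that acts on histone H2B, was listed at 10.5 FPKM in WT and at 12.6 FPKM in the column labelled Alb-Cre;UBR7fl/fl. The level was therefore not lower in the column labelled as the knockout, and the columns are called by their labels throughout for this reason. The log2(FPKM + 1) difference was 0.24, and the ratio was 1.20. The value covers the whole transcript, and which exons the loxP sites flank is not given in the sources used here, so that the deleted part cannot be looked at on its own. Every direction below rests on these column labels.

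The precision that reads allow was taken from the FPKM values themselves. Since reads are counted in whole numbers, low FPKM values move in steps. The read total of each column was taken as the largest that gives those steps, with the lowest values taken as 1 read. The totals were 24495956 reads in WT and 14197506 reads in the column labelled Alb-Cre;UBR7fl/fl. For each member, the smallest whole reads that give both of its values were then searched. Given these totals, the reads and the lengths that go with them are lower bounds, since any whole multiple would give the same FPKM. For UBR7 the smallest numbers were 947 reads (WT) and 659 reads (the other column). The 95% counting interval of its ratio, from the exact binomial (Clopper-Pearson) method, ran from 1.09 to 1.33. Such an interval covers counting error only, with reads taken as independent molecules, and compares 2 columns and not 2 genotypes. Whole reads under 1 read total per column were found for each of the 7 members. A mean of FPKM over samples of unlike depth need not give such whole reads. How the 3 samples of a genotype entered its column was not tested.

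The subunits of the NRF2 ligase were next. KEAP1 transcript ENST00000171111.9_2 was listed at 20.9 FPKM in WT and 24.7 FPKM in the column labelled Alb-Cre;UBR7fl/fl, a log2(FPKM + 1) difference of 0.23 and a ratio of 1.18 (1.09 to 1.28, counting error only). KEAP1 transcript ENST00000393623.6_2 was listed at 23.2 and 27.5 FPKM, also with a difference of 0.23 and a ratio of 1.18 (1.09 to 1.28). Both are higher in the same column by nearly the same amount, but they are not independent measurements. The first needed at least 1514 and 1036 reads and the second at least 1507 and 1033, over lengths of at least 2955 and 2648 bases, so that their read numbers differ far less than their lengths. Their ratio to each other was 0.90 in either column. The sum of both was 44.1 FPKM in WT and 52.2 FPKM in the other column. Reads that fit both transcripts may be counted in each, so this sum is not a level of the gene.

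CUL3, the scaffold on which KEAP1 and the ubiquitin-conjugating enzyme meet, was listed at 6.40 FPKM in WT and 7.46 FPKM in the column labelled Alb-Cre;UBR7fl/fl. The log2(FPKM + 1) difference was 0.19. With at least 352 and 238 reads the ratio was 1.17, and its counting interval, 0.985 to 1.38, was the only 1 of the 7 that spans 1. If the reads were 3 times these numbers, which would give the same FPKM, the interval would be 1.06 to 1.28.

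NFE2L2, the gene of the factor that the ligase degrades, had the highest level of the 7 in WT. It was listed at 42.0 FPKM in WT and at 33.9 FPKM in the column labelled Alb-Cre;UBR7fl/fl. The log2(FPKM + 1) difference was -0.30 and the ratio 0.807 (0.756 to 0.860, counting error only), from at least 2935 and 1372 reads. RNA-seq does not measure the NRF2 protein, whose level the pathway sets.

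BACH1, the repressor at the same DNA elements, was listed at 6.61 FPKM in WT and 3.02 FPKM in the column labelled Alb-Cre;UBR7fl/fl. The WT value was thus 2.19 times the other. The ratio of 0.457 had a counting interval of 0.395 to 0.527 from at least 918 and 243 reads, which overlaps with that of no other member. On the log2(FPKM + 1) scale the difference was -0.92, short of the limit of 1, and the plain log2 ratio, which has no pseudocount, was -1.13. The side of the limit on which BACH1 falls is therefore set by the pseudocount.

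HK2, which phosphorylates glucose at the entry to glycolysis, was listed at 40.5 FPKM in WT and 34.0 FPKM in the column labelled Alb-Cre;UBR7fl/fl. The log2(FPKM + 1) difference was -0.24 and the ratio 0.841 (0.776 to 0.910, counting error only), from at least 1907 and 929 reads. The HK2 transcript thus stood in the upper part of both columns, above 87.1% of the transcripts compared in WT and above 84.7% in the other column. HK2 is described above as low in normal hepatocytes. The labelled cell type was not checked, so whether these are hepatocyte levels was not tested.

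**Figure D2:**
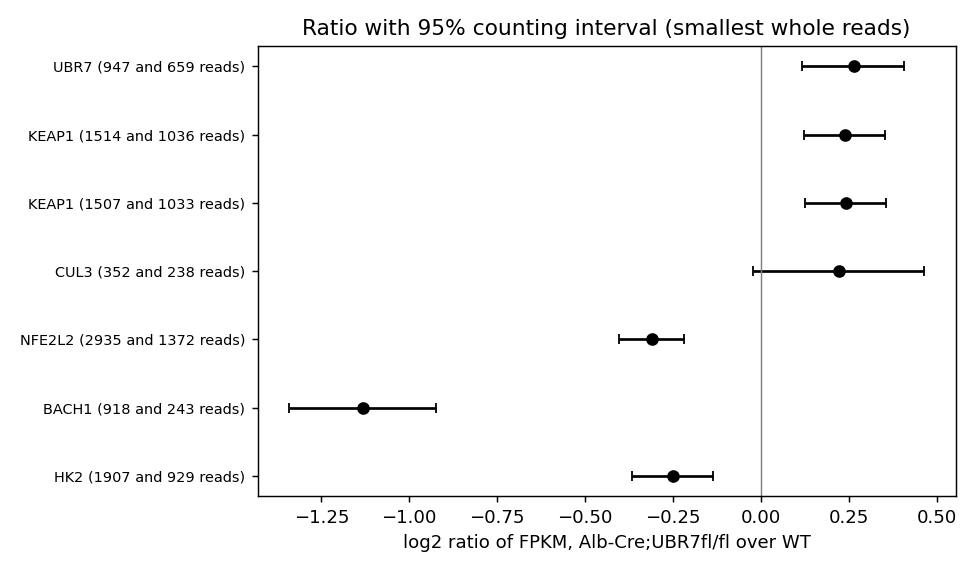
Log2 ratio of FPKM, the column labelled Alb-Cre;UBR7fl/fl over WT (horizontal axis), for the 7 transcripts; points are the deposited ratios and bars the exact binomial 95% intervals from the smallest whole reads (in brackets, WT and then the other column), which cover counting error only. Of the 7 intervals 6 exclude 0 on this scale, the interval of CUL3 spans it, and BACH1 stands apart at -1.13. At a multiple of its smallest reads, which would give the same FPKM, the CUL3 interval can exclude 0.

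The members were then placed among all transcripts. Of the table, 116955 transcripts had at least 1 FPKM in at least 1 column and were compared. All 7 members had at least 1 FPKM in both columns, so that none was compared only because it was high in 1 genotype. A difference of at least 1 in either direction was found for 5.67% of the transcripts compared, higher for 0.866% and lower for 4.80%, whereas 0 of the 7 members reached it. With the plain log2 ratio and at least 1 FPKM in both columns, an alternative chosen after the values were seen, 5.47% were lower by at least 1, and BACH1 was the 1 member among them. The counts in either case rest on the size of the difference alone.

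Over all transcripts compared the median difference was -0.09 and the central 90% lay between -0.98 and 0.52. The median of the 7 members was 0.19, with 4 higher and 3 lower, against 39.9% higher and 60.1% lower over all transcripts. KEAP1 enters this median and this split with both of its transcripts, which are not independent measurements. Neither value is therefore a summary by gene. Each member lay inside the central range. BACH1 came closest to its edge, since 5.71% of the transcripts compared had a lower difference. NFE2L2 and HK2 were less far down, with 30.6% and 35.4% of transcripts below them. UBR7 was exceeded by 17.0% of the transcripts, the KEAP1 transcripts by 18.1% and 17.8%, and CUL3 by 20.9%. The split of higher and lower over all transcripts depends on the scaling, since 45.6% were lower with a median of 0.04 under quantile normalization and 50.0% were lower after median centring, which fixes that share.

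**Figure D3:**
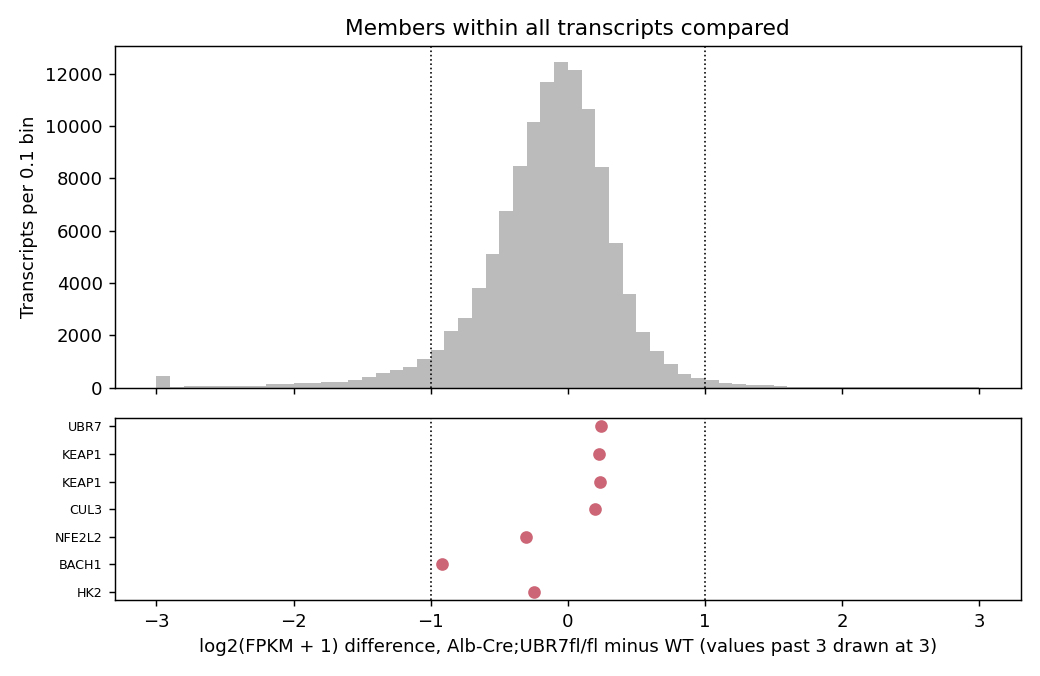
Upper panel, number of transcripts per bin of the log2(FPKM + 1) difference (column labelled Alb-Cre;UBR7fl/fl minus WT) for the 116955 transcripts compared; lower panel, the 7 members on the same axis, with dotted lines at -1 and 1. The members lie between -0.92 (BACH1) and 0.24 (UBR7), and none passes a dotted line.

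Low transcripts vary more by counting alone, so each member was also set beside the transcripts whose mean log2(FPKM + 1) lies within 0.5 of its own. Among 26178 transcripts at the level of BACH1, 6.17% had a lower difference, and their median was -0.17. Among 12332 at the level of NFE2L2, 16.1% were lower, and among 12499 at the level of HK2, 19.5%. These 2 members lie further out among transcripts of their own level than among all transcripts. UBR7 was exceeded by 15.7% of 24742 transcripts and CUL3 by 17.4% of 26468. The KEAP1 transcripts were exceeded by 21.0% of 18488 and 21.2% of 17218. These shares describe the table and are not a test.

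The order of the levels was nearly the same in both columns. In WT it ran from NFE2L2 (42.0 FPKM) and HK2 (40.5) through KEAP1 (23.2 and 20.9) and UBR7 (10.5) to BACH1 (6.61) and CUL3 (6.40). Of the 21 pairs of members, 2 changed places. NFE2L2 was 1.04 times HK2 in WT and 0.996 times HK2 in the column labelled Alb-Cre;UBR7fl/fl, a change of 0.960 that is small beside the counting intervals of the 2 transcripts. CUL3 was 0.967 times BACH1 in WT and 2.47 times BACH1 in the other column.

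Ratios between members within a column do not depend on any single factor by which a column is scaled, although quantile normalization can change them. KEAP1 transcript ENST00000171111.9_2 stood at 0.498 times NFE2L2 in WT and at 0.729 times NFE2L2 in the column labelled Alb-Cre;UBR7fl/fl, a 1.46-fold change. Against HK2 the same transcript went from 0.517 to 0.726, a 1.40-fold change, and against BACH1 from 3.16 to 8.18, a 2.59-fold change. UBR7 and KEAP1, in contrast, kept nearly the same ratio, with UBR7 at 0.450 times ENST00000393623.6_2 in WT and 0.457 times in the other column. KEAP1 over CUL3 was 3.27 and 3.31. The levels of UBR7, KEAP1 and CUL3 thus differed little against each other, whereas each of them was higher against NFE2L2, HK2 and BACH1. These changes are quotients of the member ratios given above, so they restate those ratios and are not a separate result. NFE2L2 over BACH1 went from 6.35 to 11.2, so that the 3 lower members did not differ by a common factor.

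The rows around each member in the deposited table are given as a description. They were looked at after the members' values were known, their genes were not looked up, and reads may be counted on several of them. All 9 transcripts compared within 5 rows of BACH1 were lower in the column labelled Alb-Cre;UBR7fl/fl, with differences from -1.16 to -0.56 on the log2(FPKM + 1) scale. The next row, ENST00000399921.5_1, had 6.55 and 2.99 FPKM from at least 926 and 245 reads, close to the reads of the BACH1 member. The rows are not counted as separate measurements, as ENST00000451655.5_2 and ENST00000447177.5_1 both had smallest reads of 192 and 44. The BACH1 neighbours with differences from -0.65 to -0.56 had smallest reads of only 6 to 31 in WT and 2 to 10 in the other column. All 8 beside NFE2L2 were lower as well, from -0.83 to -0.30. The row at -0.83 had smallest reads of only 34 and 8. The row at -0.30, ENST00000397063.8_3, had at least 2917 and 1367 reads, close to those of the NFE2L2 member. Over all transcripts compared, 60.1% were lower and 39.9% higher.

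The rows beside HK2 and UBR7 were mixed. Of 6 compared beside HK2, 4 were lower and 2 higher, between -0.23 and 0.09, and 4 of them stood at only 1.78 to 3.44 FPKM in WT. The adjacent ENST00000409174.1_1 was close to the HK2 member, with 40.2 FPKM in WT and 34.0 FPKM in the other column from at least 5191 and 2546 reads. Of 10 beside UBR7, 6 were higher and 4 lower, between -0.22 and 0.27 with a median of 0.07. Beside CUL3, 4 of 5 were higher, with a median of 0.20. The adjacent ENST00000344951.8_1 was close to the CUL3 member, with 6.13 FPKM in WT and 7.21 FPKM in the other column. Its smallest reads were 990 and 675. Beside the KEAP1 transcripts, 6 of 8 and 8 of 9 were higher. These sets share rows, since the KEAP1 transcripts have 1 row between them and each counts among the neighbours of the other.

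**Figure D4:**
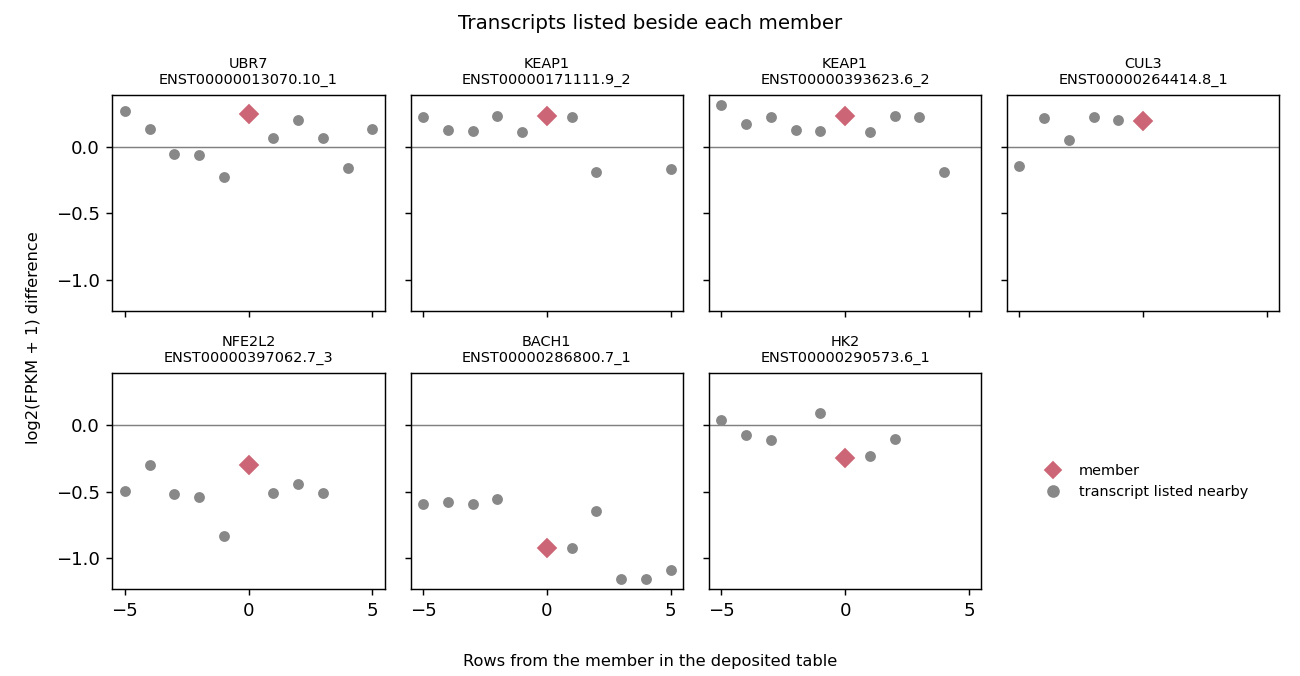
Log2(FPKM + 1) difference (column labelled Alb-Cre;UBR7fl/fl minus WT) of each member (red diamond) and of the transcripts compared within 5 rows of it in the deposited table (grey points); the horizontal axis gives the distance in rows. Every grey point beside NFE2L2 (8) and BACH1 (9) lies below 0, whereas those beside UBR7, KEAP1, CUL3 and HK2 lie on both sides. Rows may share reads, and 60.1% of all transcripts compared were lower.

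The direction of all 7 members was the same under each scaling tried, and the size varied. With both columns scaled to the same sum, the difference of CUL3 was 0.12 and that of BACH1 -0.63. This scaling lowered the FPKM values before the pseudocount was added, so the pseudocount shrank the differences of low transcripts more. With quantile normalization, which gives both columns the same distribution, UBR7 stood at 0.36, CUL3 at 0.37 and BACH1 at -0.71. After subtraction of the median over all transcripts, HK2 stood at -0.15 and NFE2L2 at -0.21. BACH1 remained the member with the largest difference in each of these.

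**Figure D5:**
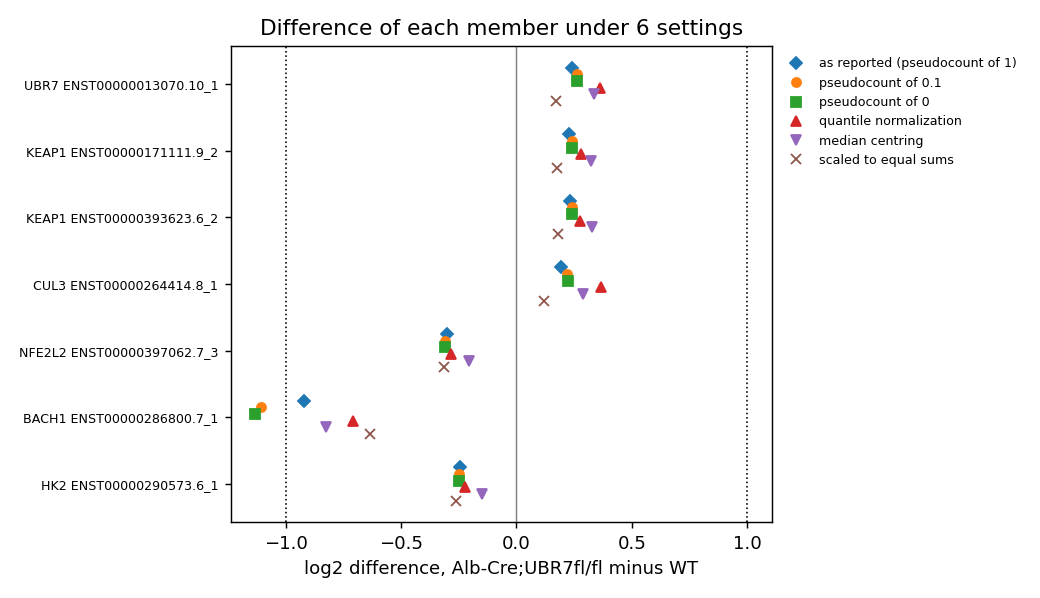
Log2 difference (column labelled Alb-Cre;UBR7fl/fl minus WT) of the 7 members under 6 settings, which are the reported one (diamonds) and the other pseudocounts and scalings named in the legend; dotted lines mark -1 and 1. No member changes sign, which a change of pseudocount alone could not bring about. BACH1 passes -1 with a pseudocount of 0.1 (-1.11) and with none (-1.13).

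The promoters of the mouse genes give the sequence context of the question the study asked. They are shown for 3 genes: Keap1, the promoter at which the study looked for ubiquitinated H2B, Hk2, the proposed target of BACH1, and Nfe2l2, the only member whose window held a searched element. The sequences are the RefSeq reference on GRCm38.p6, 5′ to 3′ on the strand of the gene, and end before the start site in RefSeq and in GENCODE M21. Capitals mark a match to the element searched. No value of the deposited table, whose identifiers are human, was measured on them.
Keap1, minus strand, chr9:21239362-21239582: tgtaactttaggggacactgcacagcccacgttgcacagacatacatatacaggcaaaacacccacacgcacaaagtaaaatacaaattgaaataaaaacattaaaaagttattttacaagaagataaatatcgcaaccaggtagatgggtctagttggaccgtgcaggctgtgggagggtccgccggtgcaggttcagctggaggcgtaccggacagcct
Hk2, minus strand, chr6:82774455-82774704: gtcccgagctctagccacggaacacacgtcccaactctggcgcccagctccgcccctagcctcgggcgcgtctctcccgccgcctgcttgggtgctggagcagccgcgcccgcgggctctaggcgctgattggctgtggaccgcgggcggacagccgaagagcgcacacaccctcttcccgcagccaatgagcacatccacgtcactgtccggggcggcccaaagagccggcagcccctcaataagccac
Nfe2l2, minus strand, chr2:75704664-75704913: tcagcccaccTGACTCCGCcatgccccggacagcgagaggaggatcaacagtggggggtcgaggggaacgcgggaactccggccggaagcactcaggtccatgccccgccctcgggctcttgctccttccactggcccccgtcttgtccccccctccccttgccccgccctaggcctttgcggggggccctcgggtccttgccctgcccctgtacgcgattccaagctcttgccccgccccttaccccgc

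The elements searched were TGACNNNGC, the core of the antioxidant response element that NRF2 and BACH1 share with small MAF proteins, and TGAGTCA, a core of BACH and AP-1 sites, on both strands in the 250 bases before each RefSeq start. The Keap1 sequence above shows 221 of these bases, because it ends before the start of the gene in GENCODE M21 as well. The reverse strand of the second can overlap the first. TGACNNNGC was found in 1 of the 6 member promoters, that of Nfe2l2, and in 10.2% of 32851 promoters of mouse genes. TGAGTCA was found in 0 of the 6 and in 4.46% of all. A match in these letters is a description of the window and not a binding site, and distant elements were not searched. On GRCm38 in GENCODE M21, the protein-coding genes lie at chr12:102757967-102777707 on the plus strand (Ubr7), chr9:21229730-21239361 on the minus strand (Keap1), chr1:80264923-80340480 on the minus strand (Cul3), chr2:75675513-75704641 on the minus strand (Nfe2l2), chr16:87698945-87733346 on the plus strand (Bach1) and chr6:82725025-82774454 on the minus strand (Hk2). The human positions of the measured transcripts were not analysed here.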

How the data were processed

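RNA-seq of 6 samples, 3 WT and 3 Alb-Cre;UBR7fl/fl by their titles, was deposited by the authors as FPKM in 2 columns, each named a mean value and printed here as the authors' value with no SD and no n. According to the study's methods, reads were aligned to human GRCh38 with Bowtie2 and tested with DESeq2; the submitters' processing notes name CASAVA 1.8 and TopHat2 2.0.6 instead. The counting tool and annotation release are not given in the sources used here, and how reads that fit several transcripts were counted can change single FPKM values.

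From the deposited FPKM, differences were taken on log2(FPKM + 1) with a pseudocount of 1, which understates changes of low transcripts, leaving out transcripts under 1 FPKM in both columns. A difference of at least 1 was a call; no test was possible with 1 value per genotype. All 7 transcripts of the rule are named. The members, lists and alternatives were chosen with earlier results of these data known. Read totals and whole reads were recovered from the FPKM steps, with lengths searched up to 30000 bases, and the procedure was tested on simulated data. Alternatives were pseudocounts of 0.1 and 0, quantile normalization, median centring, scaling to equal sums, a limit of 2 and other filters; the plain ratio filter, and the look at rows within 5 of each member, were chosen after seeing the data. The software was scipy 1.17.1 (intervals), pandas 2.3.3 and numpy 2.4.6 under Python 3.11.15, with figures from matplotlib 3.10.9.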

Additional observations from a re-analysis of the deposited data

How the results depend on the processing

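No paired analysis was possible because the table carries 1 value per genotype and no replicates; leaving out samples was not possible for the same reason. All 7 members kept their direction under quantile normalization, median centring and scaling to equal sums. The other planned settings, pseudocounts of 0.1 and 0, cannot change a direction. Counting error at the smallest reads, carried over to the log2(FPKM + 1) scale, allows -1.08 to -0.76 for BACH1 (-0.92 as reported). Outside this range were -0.71 with quantile normalization and -0.63 scaled to equal sums. So were -1.11 with a pseudocount of 0.1 and -1.13 with a pseudocount of 0, which change the scale and not the ratio. Scaling to equal sums lowered the FPKM values before the pseudocount was added. The value of -0.63 therefore also holds a heavier pseudocount and is not the effect of the scaling alone. NFE2L2 (-0.30) went to -0.207 with median centring, just outside its range of -0.393 to -0.212. The other settings stayed inside the range of their member. Each KEAP1 transcript alone gave 0.23, and their sum 0.24. The smallest reads of the KEAP1 transcripts are nearly the same. These values could therefore hardly differ and are not a separate check.

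As reported, 1013 transcripts were called higher and 5615 were called lower. A limit of 2 gave 90 and 1037, a pseudocount of 0.1 gave 1959 and 10122, and at least 1 FPKM in both columns gave 647 and 3503. Quantile normalization gave 1703 higher and 4022 lower, so that lower transcripts made up 70.3% of the calls in place of 84.7%, and 76.9% with median centring. No filter cannot change these counts. For these moves the cause was not tested. The smallest reads in the column labelled Alb-Cre;UBR7fl/fl were 238 for CUL3 and 243 for BACH1. Both are lower bounds, so which member depth limits most cannot be told.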
